A study of Mus musculus with 48 samples.

Results

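The 39 interferon-induced genes described here were followed in nociceptors, the sensory neurons that report damaging stimuli, with and without the growth regulator Tsc2 and with and without a crush of their axons. They were taken by name from a list of interferon receptors, the transcription factors that act behind them, cytosolic sensors of foreign nucleic acid and antiviral effectors, and all 39 were found among the 47643 genes of the count files. Neurons came from the ganglion of lumbar level 4, taken 3 days after the sciatic nerve had been crushed with forceps, from mice 8 to 9 weeks old on a mixed C57BL/6 and AJ background. Every mouse carried Nav1.8-Cre, a Cre recombinase active in nociceptors and some other sensory neurons, and Rosa26-ZsGreen, the fluorescent reporter used for sorting. Control mice were Tsc2 flox/+, so that their Nav1.8 neurons lose 1 of the Tsc2 copies and are not wild type. Conditional knockout mice, called cKO below, were Tsc2 flox/null, so that 1 copy is null in every cell and the same neurons lose the other. Cells without Cre thus keep 1 working copy in cKO mice and 2 in control mice. Tsc2 encodes tuberin, which restrains the kinase complex mTORC1. Ganglia of the crushed side made up the groups crush control and crush cKO, and ganglia of the other side, from animals that had also been operated on, made up uninjured control and uninjured cKO. Each of the 4 groups held 4 animals, 2 male and 2 female, and each animal and side gave 3 technical aliquots of about 100 sorted cells. The labels do not say whether the 2 sides of a genotype came from the same animals.

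Interferons are secreted proteins that warn cells of infection. Type I interferons bind a receptor made of Ifnar1 and Ifnar2, and interferon gamma binds a receptor made of Ifngr1 and Ifngr2. The type I receptor acts through a factor that contains Stat2 and Irf9 and binds the interferon-stimulated response element, and signals of the gamma receptor reach genes through the gamma-activated site. The genes switched on in this way encode proteins that hold back viruses, that sense foreign RNA or DNA, or that pass the signal on. Sensory neurons carry interferon receptors, and type I interferon is known to act on nociceptors.

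Depth ran from 5159353 to 34228180 gene counts per library, and from 36773198 to 63365268 once the aliquots of an animal and side were summed. Levels are given as CPM, counts scaled to the size of the library, n = 4 animals per group, and changes as log2 changes ± SE from edgeR. Tsc2 stood at 13.6 to 24.8 CPM in uninjured control and 7.29 to 10.9 in uninjured cKO samples, and at 20.4 to 28.4 in crush control and 5.83 to 11.6 in crush cKO samples. It was lower in cKO neurons in both states, by log2 changes of -1.24 ± 0.23 (edgeR adjusted p = 0.00101) and -1.48 ± 0.23 (adjusted p = 0.00106). All 11 nociceptor markers were present in every sample, with Scn10a at 197 to 791 CPM. Transcripts of glia were present too, with the 9 satellite glia markers at a summed 732.6 to 1496 CPM. In such pools, fewer cells that express a gene and less RNA per cell cannot be told apart. None of the 21 interferon genes themselves passed the filter on low counts: 15 had 0 counts in all 16 samples and the highest total was 9 counts, of Ifnk. A count of 0 over all samples allows a level of up to 0.00359 CPM, which is 3 of 836167398 counts.

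At rest the list spanned a wide range of levels. Per kilobase of exon, the highest level in uninjured control neurons was that of Ifi27 at 438 CPM per kb, followed by Ifitm2 at 77.1, Ifi35 at 61.0, Ifitm3 at 22.1 and Oasl2 at 18.1. The lowest were Zbp1 at 0.0985, Mx1 at 0.105, Ifi202b at 0.175 and Ifi44 at 0.271 CPM per kb. In crush cKO neurons Ly6e stood at 138.7 and Ifi202b at 69.2 CPM per kb, both above Ifitm2 at 55.4. Of the 39 genes, 27 had counts in all 48 libraries, and Ifi44 and Zbp1 had them in 24 and 22. Between the 4 animals of a group the list varied more than other genes did: the median SD of log2 CPM over the list was 0.657 in uninjured and 0.65 in crush control samples, and 0.332 in uninjured and 0.524 in crush cKO samples. Over all genes tested, in the same order, it was 0.427, 0.378, 0.3 and 0.392.

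**Figure D1:**
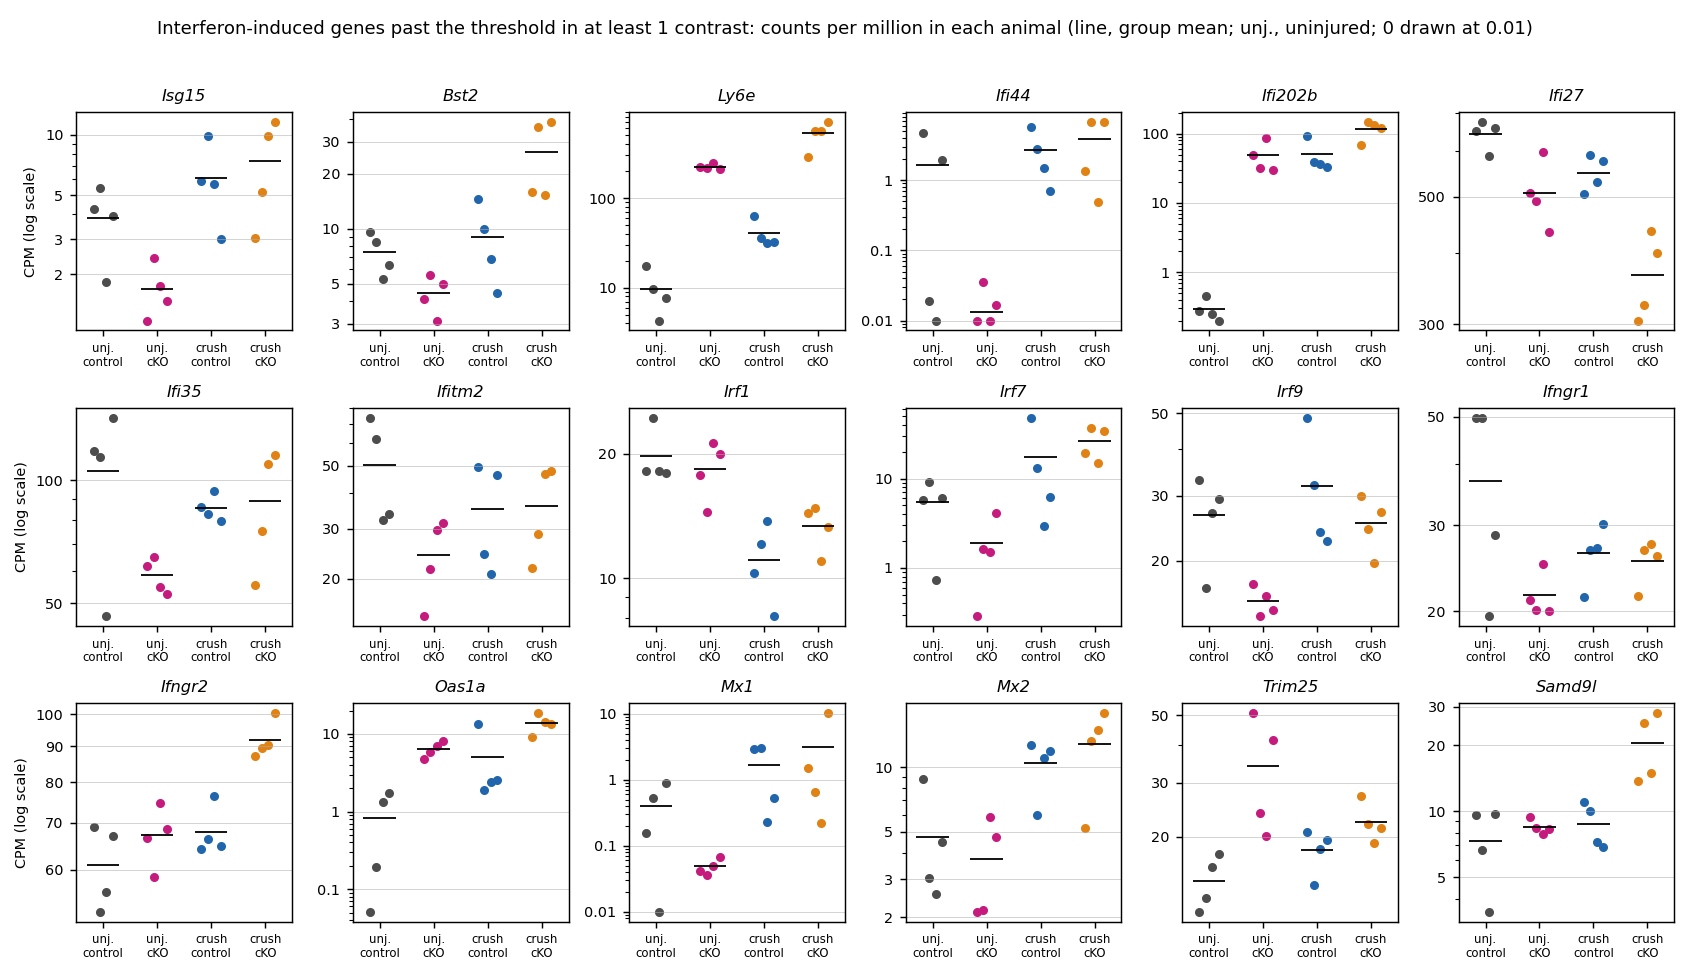
CPM on a log axis for the 18 interferon-induced genes past the threshold in at least 1 contrast; each point is 1 animal and each line a group mean, with a value of 0 drawn at 0.01. Ifi202b lies at 0.201 to 0.458 CPM in the 4 uninjured control samples and at 30.4 or more in all other samples, while Bst2 lies at 15.4 CPM or more in the crush cKO samples and at 14.6 or less elsewhere.

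Among cKO neurons, crush raised part of the list. 9 of the 39 genes rose, against 2.57% of the 19048 genes tested that rose in the same contrast, and 1 fell, against 2.86% that fell. Those that rose included Bst2, Isg15, Ifi44, Mx1, Mx2, Samd9l and Ly6e, grouped here by name as antiviral effectors. The transcription factor Irf7 and the receptor chain Ifngr2 rose too, and the gene that fell was Ifi27. The median log2 change of the 39 was 0.64, beside 0.00232 for all genes tested.

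Bst2 encodes tetherin, a membrane protein that holds budding viruses on the cell surface. It stood at 9.59, 8.45, 5.32 and 6.34 CPM in the uninjured control animals and at 4.12, 5.58, 3.13 and 4.98 in the uninjured cKO animals. After crush it stood at 14.6, 10.01, 6.82 and 4.43 CPM in control and at 15.8, 36.4, 15.4 and 38.5 in cKO animals. Each crush cKO animal lay above every uninjured cKO animal and above every crush control animal. Its log2 change after crush in cKO neurons was 2.57 ± 0.39 (adjusted p = 0.00106), and leaving out any 1 of the 16 samples kept the call, at an adjusted p of at most 0.00651. Bst2 and the other called genes were picked by a test of these same values. Groups without overlap are given as description and add no separate evidence.

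Isg15 encodes a small protein resembling ubiquitin that is coupled to other proteins. In uninjured cKO animals it stood at 1.18, 2.41, 1.75 and 1.47 CPM, below 3 of the 4 uninjured control animals at 4.27, 5.40, 1.83 and 3.94. After crush the cKO animals stood at 3.06, 5.17, 9.83 and 11.6 CPM and the control animals at 5.85, 9.84, 5.71 and 3.00, and these groups overlapped. The log2 change after crush in cKO neurons was 2.12 ± 0.46 (adjusted p = 0.0119), with an adjusted p of at most 0.0498 when any 1 sample was left out. Irf7, the transcription factor best known for switching on interferon alpha genes, stood at 0.289, 1.63, 1.501 and 4.14 CPM in uninjured cKO and 19.1, 36.3, 14.96 and 33.8 in crush cKO animals. In controls it stood at 5.77, 9.21, 0.724 and 6.10 CPM before and 47.9, 13.2, 2.93 and 6.27 after crush, so that the animals of the control groups overlapped and crush control animal 1 was above all cKO animals. Its change in cKO neurons was 3.78 ± 0.90 (adjusted p = 0.0207), and the call was lost without uninjured cKO animal 1, 2 or 3 or crush cKO animal 4, at an adjusted p of at most 0.0712.

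Mx1 and Mx2 are named for dynamin-like GTPases that restrict viruses. The gene annotation lists Mx2 as a polymorphic pseudogene, a gene that is intact in some individuals or strains only. Whether either gene gives a working protein in these mice was not tested. Mx1 stood at 0.0412, 0.0354, 0.0490 and 0.0675 CPM in uninjured cKO and 1.52, 0.653, 0.222 and 10.2 in crush cKO animals, so the groups did not overlap, though crush cKO animal 4 alone was more than the other 3 together. In controls it stood at 0.154, 0.534, 0 and 0.904 CPM before and 2.92, 2.98, 0.231 and 0.534 after crush. The change in cKO neurons was 5.94 ± 1.44 (adjusted p = 0.0225), falling to 3.99 without crush cKO animal 4, and the call was lost without that animal or without any of the uninjured cKO animals, at an adjusted p of at most 0.105. Mx2 stood at 2.12, 2.16, 5.87 and 4.73 CPM in uninjured cKO and 5.18, 13.2, 14.9 and 17.8 in crush cKO animals, which overlapped through crush cKO animal 1. In controls it stood at 8.84, 3.05, 2.57 and 4.48 CPM before and 12.7, 6.01, 11.1 and 11.9 after crush. Its change in cKO neurons was 1.78 ± 0.46 (adjusted p = 0.034), and the call was lost without uninjured cKO animal 1, 2 or 4 or crush cKO animal 2, 3 or 4, at an adjusted p of at most 0.113.

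Ifi44 was nearly silent in uninjured cKO neurons, where 3 of 12 libraries held 1 count each. Its levels were 0, 0.0354, 0 and 0.0169 CPM there and 1.35, 6.70, 0.494 and 6.72 CPM in the crush cKO animals. The control animals stood at 4.67, 0.0191, 0 and 1.97 CPM before and 5.81, 2.80, 1.503 and 0.712 after crush and overlapped. With 3 counts in uninjured cKO against 756 in crush cKO samples, the ratio was 301. Its exact 95% counting interval of 103 to 1460 covers counting error only and takes each count as an independent draw. Counts include amplification copies, however. Over all genes, the variance between aliquots of an animal was 21.3 to 114 times that of independent counts. This interval and the other counting intervals below are therefore too narrow. The fitted log2 change was 7.93 ± 1.81 (adjusted p = 0.0163), a size that depends on how counts of 0 are treated. Its call was lost without uninjured cKO animal 1, 3 or 4, at an adjusted p of at most 0.0593. The calls of Isg15, Irf7, Mx1 and Ifi44 were also lost when limma-voom took the place of edgeR.

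Samd9l, which encodes an antiviral protein that also restrains cell growth, stood at 9.44, 8.38, 7.90 and 8.31 CPM in uninjured cKO and 13.7, 25.3, 14.9 and 28.01 in crush cKO animals. In controls it stood at 9.64, 6.64, 3.49 and 9.68 CPM before and 11.02, 9.99, 7.25 and 6.85 after crush. All crush cKO animals were above all others. The change in cKO neurons was 1.27 ± 0.30 (adjusted p = 0.0211), lost without any of the uninjured cKO animals or crush cKO animal 2 or 4, at an adjusted p of at most 0.0785. Ifngr2, the signalling chain of the interferon gamma receptor, stood at 68.9, 52.3, 55.8 and 66.96 CPM in uninjured control, 66.7, 58.7, 74.8 and 68.5 in uninjured cKO and 64.2, 66.4, 76.4 and 64.8 in crush control animals. In crush cKO animals it stood at 87.2, 89.6, 90.6 and 100.4 CPM, again above all others. This was a small change, 0.45 ± 0.11 (adjusted p = 0.0204), lost without uninjured cKO animal 1 or 2 or crush cKO animal 4, at an adjusted p of at most 0.0767.

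Ly6e encodes a surface protein, anchored by a lipid, that alters the entry of viruses. Its levels separated all 4 groups. They were 17.4, 9.58, 4.31 and 7.67 CPM in uninjured control, 62.5, 35.5, 31.6 and 32.6 in crush control, 223, 214, 245 and 208 in uninjured cKO and 284, 552, 564 and 701 in crush cKO animals. The step from uninjured to crush cKO was 1.24 ± 0.34 (adjusted p = 0.0444), a call kept only without uninjured control animal 1 or 3, crush control animal 1 or crush cKO animal 1 and lost without any of the other samples, at an adjusted p of at most 0.135. Ifi27, the most abundant gene of the list, is known in human cells as a small mitochondrial protein. It fell from 507, 492, 598 and 435 CPM in uninjured cKO to 305, 324, 437 and 399 CPM in crush cKO animals, groups that overlapped by 1 animal on each side. The change was -0.47 ± 0.12 (adjusted p = 0.0266), lost without uninjured cKO animal 1, 2 or 3 or crush cKO animal 1 or 2, at an adjusted p of at most 0.118. In uninjured control animals Ifi27 stood at 650, 674, 587 and 658.5 CPM. Its log2 change with deletion in uninjured neurons, -0.34 (edgeR adjusted p = 0.0523), did not pass, though it did in limma-voom and DESeq2.

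**Figure D2:**
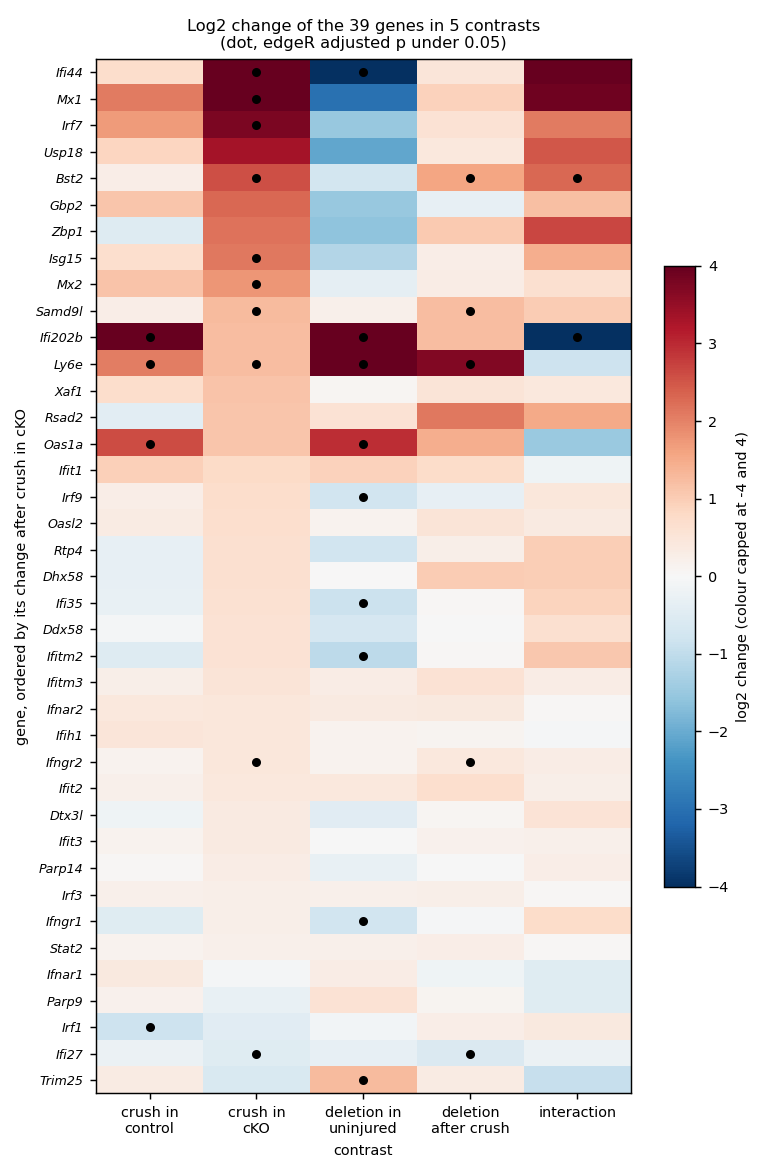
Log2 change of all 39 genes, in rows ordered by their change after crush in cKO neurons, in 5 contrasts in columns; colour gives the change, capped at -4 and 4, and a dot marks an edgeR adjusted p under 0.05. Crush in cKO neurons carries 10 dots and the interaction carries 2, Bst2 upward and Ifi202b downward.

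The sequences before the start sites of these genes are shown for those that rose after crush in cKO neurons and carry a match to either interferon element, with Irf7 beside them as a gene that rose and carries none. Promoters of 300 bases, 250 before and 50 after the start site, were read from RefSeq on GRCm38.p6 and run 5′ to 3′ on the strand of the gene. The response element was searched as GAAA followed, after any 2 bases, by GAAA, and the gamma-activated site as TTCNNNGAA, on both strands and with overlaps allowed. Capitals mark every match.
Bst2, chr8:71537423-71537722, minus strand: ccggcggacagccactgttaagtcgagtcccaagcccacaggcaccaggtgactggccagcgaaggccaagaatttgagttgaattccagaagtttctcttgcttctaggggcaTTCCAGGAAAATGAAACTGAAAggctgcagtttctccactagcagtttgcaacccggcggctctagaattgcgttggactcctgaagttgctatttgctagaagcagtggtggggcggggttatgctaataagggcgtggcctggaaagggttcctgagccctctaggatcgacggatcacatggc
Isg15, chr4:156200769-156201068, minus strand: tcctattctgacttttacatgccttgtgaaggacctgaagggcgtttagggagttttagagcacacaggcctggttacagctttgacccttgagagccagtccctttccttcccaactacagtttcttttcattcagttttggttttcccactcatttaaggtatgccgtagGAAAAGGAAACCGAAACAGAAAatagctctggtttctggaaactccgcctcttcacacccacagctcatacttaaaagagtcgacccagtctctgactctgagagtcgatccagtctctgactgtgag
Irf7, chr7:141266375-141266674, minus strand: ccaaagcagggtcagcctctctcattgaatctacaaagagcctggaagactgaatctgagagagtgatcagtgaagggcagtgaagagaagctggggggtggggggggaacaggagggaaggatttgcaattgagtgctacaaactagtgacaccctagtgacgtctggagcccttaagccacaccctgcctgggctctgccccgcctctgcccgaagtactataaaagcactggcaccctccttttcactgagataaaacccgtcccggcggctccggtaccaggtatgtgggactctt
The capitals of Bst2 hold a gamma-activated site that starts 136 bases before the start site and runs into response elements that start at 130 and 124 bases. Those of Isg15 hold 3 overlapping response elements that start 78, 72 and 66 bases before the start site. Samd9l, Ifi44 and Ifngr2 held no exact match in this window either. Sequences that differ from the pattern in a base or in spacing were not counted. A match is a run of letters and not a bound site. Of the 29 genes of the list with a RefSeq promoter, 12 (41.4%) held the response element, against 3.44% of all 32851 promoters, and 9 (31.0%) held the gamma-activated site, against 8.30% of all promoters. These units differ: a gene counted as matched if any of its promoters matched, and the others were counted by promoter. Irf1, Irf9 and Ifit2 had more than a single promoter, which raises the chance of a match for them. The matched genes that were not called in any contrast included Ifit1, Ifit3, Rsad2, Stat2, Ddx58, Ifih1 and Gbp2, and those genes are known targets of interferon. Promoters of Ly6e, Mx1, Mx2, Usp18, Ifi27, Parp9, Parp14, Zbp1, Dhx58 and Rtp4 were not analysed here.

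Crush in control neurons moved fewer of the genes past the threshold. Such counts do not test whether the genotypes differ, which the interaction given below asks for each gene. 3 of the 39 rose, Ifi202b, Ly6e and Oas1a, against 11.0% of all genes tested, and 1 fell, Irf1, against 8.68%. Both are smaller shares than those of all genes. The median log2 change of the list was 0.254, beside -0.0266 for all genes tested.

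Ifi202b encodes a protein that binds DNA in the cytosol and in mice is known to hold back the sensor Aim2. It stood at 0.275, 0.458, 0.253 and 0.201 CPM in the uninjured control animals and at 92.3, 39.4, 36.7 and 33.1 in the crush control animals. The cKO animals stood at 48.97, 32.5, 86.7 and 30.4 CPM before and 68.2, 147, 134 and 121 after crush. Uninjured control was thus the low group, and in each of its 12 libraries the gene held 1 to 12 counts, while each library of the other groups held 176 or more. The change after crush in control neurons was 7.40 ± 0.52 (adjusted p = 7.5e-08), and leaving out any 1 sample gave 6.93 to 7.69.

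Oas1a, an oligoadenylate synthetase that activates RNase L on meeting foreign RNA, stood at 0.0515, 0.191, 1.34 and 1.73 CPM in uninjured control and 13.2, 1.87, 2.37 and 2.51 in crush control animals. The groups did not overlap, but crush control animal 1 stood far above the other 3. The cKO animals stood at 4.72, 5.92, 7.08 and 8.05 CPM before and 9.22, 18.5, 14.3 and 13.4 after crush, which also did not overlap, though that change of 1.10 ± 0.74 (adjusted p = 0.514) did not pass. The change in controls was 2.60 ± 0.79 (adjusted p = 0.0296). It was 1.45 without crush control animal 1, and the call was lost without that animal or without uninjured control animal 2, at an adjusted p of at most 0.183. Ly6e, with the values above, changed by 2.06 ± 0.35 (adjusted p = 0.000691). Irf1, a transcription factor central to the response to interferon gamma, stood at 18.2, 24.5, 18.2 and 17.95 CPM in uninjured control and 10.3, 12.1, 13.8 and 8.10 in crush control animals and fell by a log2 change of -0.83 ± 0.18 (adjusted p = 0.00444), without overlap. In cKO neurons it stood at 17.8, 14.5, 21.2 and 19.99 CPM before and 14.4, 14.8, 10.99 and 13.3 after crush, and its change of -0.46 ± 0.18 (adjusted p = 0.187) did not pass. The promoters of the 2 intracellular sensors and effectors that rose in controls are printed with their matches in capitals.
Oas1a, chr5:120907476-120907775, minus strand: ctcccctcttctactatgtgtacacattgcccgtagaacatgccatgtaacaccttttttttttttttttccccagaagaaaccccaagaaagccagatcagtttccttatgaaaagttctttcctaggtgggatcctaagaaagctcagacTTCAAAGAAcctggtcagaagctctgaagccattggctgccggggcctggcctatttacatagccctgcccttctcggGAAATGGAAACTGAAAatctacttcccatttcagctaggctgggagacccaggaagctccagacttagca
Ifi202b, chr1:173982795-173983094, minus strand: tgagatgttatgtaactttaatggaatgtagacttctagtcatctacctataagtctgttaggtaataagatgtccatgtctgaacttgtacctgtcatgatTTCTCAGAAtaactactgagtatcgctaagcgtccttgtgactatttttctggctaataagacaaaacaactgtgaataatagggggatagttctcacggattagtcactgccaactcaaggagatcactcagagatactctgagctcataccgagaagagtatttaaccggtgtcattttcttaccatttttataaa
That of Oas1a holds response elements that start 20 and 14 bases before the start site and a gamma-activated site that starts at 98 bases, and that of Ifi202b holds a gamma-activated site that starts at 148 bases and no response element.

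Deletion of Tsc2 in uninjured neurons split the list. 4 genes rose, Ifi202b, Ly6e, Oas1a and Trim25, against 11.7% of all genes tested, and 5 fell, Ifi44, Ifngr1, Irf9, Ifi35 and Ifitm2, against 9.02%, both close to the shares of all genes. The median log2 change was -0.0267, beside 0.0152 for all genes tested. This contrast and crush in control neurons use the same uninjured control samples, so the rise of Ifi202b, Ly6e and Oas1a in both is not 2 separate observations. Ifi202b changed by 7.37 ± 0.52 (adjusted p = 1.04e-07), Ly6e by 4.51 ± 0.39 (adjusted p = 9.42e-07) and Oas1a by 2.96 ± 0.80 (adjusted p = 0.0151), each called in all fits that left out 1 sample. None of the 3 overlapped, which adds no separate evidence for genes picked by a test of the same values.

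Trim25, a ubiquitin ligase that works with the RNA sensor encoded by Ddx58, stood at 11.3, 12.5, 15.9 and 17.5 CPM in uninjured control and 50.8, 23.9, 20.04 and 41.5 in uninjured cKO animals. After crush it stood at 20.7, 13.8, 18.1 and 19.4 CPM in control and 27.2, 21.99, 19.1 and 21.3 in cKO animals. The uninjured groups did not overlap and the change was 1.25 ± 0.25 (adjusted p = 0.00235). Ifi44 fell by a fitted log2 change of -6.73 ± 1.76 (adjusted p = 0.0125), from 371 counts to 3, a ratio of 129 with an exact 95% counting interval of 43.9 to 629. Of those 371 counts, 272 came from a single aliquot of uninjured control animal 1 and 98 from a single aliquot of animal 4, while the remaining aliquots of those animals held 0. Its call was lost in limma-voom and in the fit of the 48 libraries.

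Irf9, the DNA-binding subunit of the factor behind the type I receptor, stood at 32.98, 16.9, 26.9 and 29.4 CPM in uninjured control and 17.3, 14.2, 16.1 and 14.7 in uninjured cKO animals. They overlapped through uninjured control animal 2, and the change was -0.77 ± 0.24 (adjusted p = 0.0299), lost without uninjured control animal 1 or 4 or any uninjured cKO animal, at an adjusted p of at most 0.093. After crush Irf9 stood at 48.7, 31.98, 23.96 and 22.6 CPM in control and 30.0, 24.4, 19.8 and 27.02 in cKO animals. Ifngr1, the chain that binds interferon gamma, stood at 49.7, 49.8, 19.6 and 28.6 CPM in uninjured control and 21.1, 20.1, 24.95 and 20.0 in uninjured cKO animals, with both male controls above both females. After crush it stood at 21.4, 26.6, 26.9 and 30.2 CPM in control and 21.5, 26.7, 27.5 and 25.9 in cKO animals. Its change was -0.78 ± 0.23 (adjusted p = 0.0261), lost without uninjured control animal 1 or 2 or uninjured cKO animal 1, 2 or 4, at an adjusted p of at most 0.0989.

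Ifi35, an interferon-induced leucine zipper protein, stood at 118, 114, 46.5 and 143 CPM in uninjured control and 61.6, 65.1, 54.7 and 52.6 in uninjured cKO animals, and at 86.3, 82.8, 94.1 and 79.7 in crush control and 55.4, 75.4, 109.6 and 116 in crush cKO animals. Uninjured control animal 3 was below all cKO animals and the other 3 controls were above them. The change was -0.85 ± 0.27 (adjusted p = 0.034), at adjusted p between 0.000932 and 0.111 when 1 sample was left out, and the call was lost without uninjured control animal 1, 2 or 4 or any uninjured cKO animal. Ifitm2, a membrane protein that blocks the fusion of viruses in endosomes, stood at 73.9, 62.1, 32.2 and 33.8 CPM in uninjured control and 14.8, 21.6, 29.7 and 31.4 in uninjured cKO animals, which did not overlap. After crush it stood at 49.4, 24.4, 20.8 and 46.5 CPM in control and 21.8, 28.7, 46.7 and 47.9 in cKO animals. The change was -1.05 ± 0.36 (adjusted p = 0.0487), which lost its call in 11 of the 16 fits without 1 sample, at an adjusted p of at most 0.157. It was kept without uninjured control animal 3 or 4, crush control animal 1 or 3 or crush cKO animal 1.

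After crush, deletion of Tsc2 raised 4 of the 39 genes, Ly6e, Bst2, Samd9l and Ifngr2, against 3.38% of all genes tested, and lowered 1, Ifi27, against 3.21%. The cKO and control animals did not overlap for any of the 5, but these genes were picked by a test of the same values. The share of all genes tested without overlap is not given here, so this adds no separate evidence. Ly6e changed by 3.69 ± 0.37 (adjusted p = 3.58e-05) and Ifi27 by -0.59 ± 0.12 (adjusted p = 0.00666), from 505, 591, 529 and 577 CPM in crush control animals, and both calls were kept without any 1 sample. Bst2 changed by 1.56 ± 0.38 (adjusted p = 0.0191), Samd9l by 1.22 ± 0.30 (adjusted p = 0.023) and Ifngr2 by 0.44 ± 0.11 (adjusted p = 0.0224). The calls of Bst2 and of Samd9l were lost without crush control animal 3 or 4 or crush cKO animal 2 or 4, at adjusted p of at most 0.0688 and 0.0831. That of Ifngr2 was lost without crush control animal 1 or 4 or crush cKO animal 4, at most 0.0831. All 5 were also called for crush in cKO neurons, and the contrasts share the crush cKO samples. For the others that rose after crush in cKO neurons, the difference from crush controls was 0.28 ± 0.44 (adjusted p = 0.804) for Isg15, 0.57 ± 0.80 (adjusted p = 0.777) for Irf7, 0.91 ± 1.13 (adjusted p = 0.742) for Mx1, 0.30 ± 0.45 (adjusted p = 0.795) for Mx2 and 0.49 ± 1.22 (adjusted p = 0.888) for Ifi44. None of these passed, and a p above the threshold does not show that the levels were alike. The median log2 change of the list was 0.314, beside -0.000899 for all genes tested.

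The interaction asked whether crush changed a gene by a different amount in cKO than in control neurons. It called Bst2 upward, 1 of 39 against 0.22% of all genes tested, and Ifi202b downward, 1 of 39 against 1.54%. Bst2 changed by 0.27 ± 0.37 (adjusted p = 0.677) after crush in control and by 2.57 ± 0.39 (adjusted p = 0.00106) in cKO neurons, a difference of 2.30 ± 0.53 (adjusted p = 0.0357). That call was kept without uninjured control animal 3 or 4, crush control animal 1 or 2 or crush cKO animal 1 or 3 and lost without any of the other 10 samples, at an adjusted p of at most 0.0819. Ifi202b changed by 7.40 ± 0.52 (adjusted p = 7.5e-08) in control and by 1.24 ± 0.37 (adjusted p = 0.0631) in cKO neurons, a difference of -6.15 ± 0.61 (adjusted p = 2.13e-05), kept without any 1 sample. Neither difference passed in limma-voom. For Isg15 the difference was 1.46 ± 0.63 (adjusted p = 0.319), for Irf7 2.09 ± 1.16 (adjusted p = 0.467), for Mx1 3.88 ± 1.73 (adjusted p = 0.342) and for Ifi44 7.23 ± 2.13 (adjusted p = 0.114), and none of these passed, so their crush changes were not shown to differ between genotypes. The median difference over the list was 0.417, beside -0.0153 for all genes tested.

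The 21 genes not called in any contrast covered all roles. Among the receptor chains and factors, the type I receptor chain Ifnar1 stood at 17.9 ± 1.94 CPM (SD) in uninjured control, 22.01 ± 6.52 in uninjured cKO, 23.3 ± 2.71 in crush control and 20.6 ± 4.29 in crush cKO samples. Stat2, a subunit of the type I factor, stood at 57.3 ± 11.4 CPM in uninjured control, 66.5 ± 3.88 in uninjured cKO, 63.2 ± 20.3 in crush control and 76.4 ± 17.7 in crush cKO samples. Neither passed in any contrast. Ifnar2, the other type I chain, ranged from 3.07 to 9.22 CPM and Irf3, which acts behind the RNA sensors, from 5.46 to 10.5 CPM over the 16 samples.

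Of the sensors, Ddx58, which encodes RIG-I, stood at 30.2 ± 7.56 CPM in uninjured control, 18.9 ± 5.90 in uninjured cKO, 28.6 ± 10.3 in crush control and 28.1 ± 5.84 in crush cKO samples. Ifih1, which encodes MDA5, ranged from 0.328 to 12.9 CPM and Dhx58, their relative, from 0.502 to 4.17 CPM. Zbp1, a sensor of Z-form nucleic acid, reached at most 0.968 CPM. Crush control animal 1 was the highest of its group for Ifih1 and Ddx58, and its females were the lowest.

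Ifit1, Ifit2 and Ifit3 encode proteins that bind foreign RNA. Ifit1 stood at 42.1 ± 24.99 CPM in uninjured control, 79.8 ± 17.7 in uninjured cKO, 81.8 ± 71.3 in crush control and 137 ± 79.6 in crush cKO samples, and its 2 crush control males stood at 158 and 127 CPM, its 2 females at 21.3 and 20.8. Ifit2 stood at 25.3 ± 9.91 CPM in uninjured control, 34.3 ± 6.71 in uninjured cKO, 29.2 ± 12.8 in crush control and 46.0 ± 10.5 in crush cKO samples, and Ifit3 at 13.4 ± 11.3 CPM in uninjured control, 13.1 ± 4.25 in uninjured cKO, 14.6 ± 6.17 in crush control and 16.6 ± 8.97 in crush cKO samples. Ifitm3, a relative of Ifitm2, stood at 14.96 ± 4.56 CPM in uninjured control, 18.4 ± 4.45 in uninjured cKO, 17.5 ± 4.56 in crush control and 26.4 ± 8.83 in crush cKO samples. Oasl2, an oligoadenylate synthetase-like protein, stood at 115 ± 44.4 CPM in uninjured control, 128 ± 9.70 in uninjured cKO, 144 ± 45.03 in crush control and 205 ± 52.9 in crush cKO samples. Rsad2, which encodes viperin, stood at 6.46 ± 8.07 CPM in uninjured control, 9.65 ± 1.56 in uninjured cKO, 4.80 ± 2.21 in crush control and 20.7 ± 17.3 in crush cKO samples, with uninjured control animal 4 at 18.5 CPM against 1.57 to 3.96 in the other 3.

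Usp18, which removes Isg15 from proteins and damps the type I receptor, stood at 12.4 ± 12.5 CPM in uninjured control, 2.95 ± 0.672 in uninjured cKO, 22.5 ± 35.2 in crush control and 29.9 ± 21.98 in crush cKO samples. The uninjured cKO animals, at 3.55, 3.47, 2.63 and 2.16 CPM, did not overlap the crush cKO animals at 7.89, 34.3, 18.7 and 58.6, but the change of 3.34 ± 1.04 (adjusted p = 0.0787) did not pass. It passed in DESeq2, and in edgeR without crush control animal 1, where Usp18 stood at 75.2 CPM (adjusted p = 0.0194). Xaf1, which promotes cell death, stood at 23.5 ± 4.94 CPM in uninjured control, 25.01 ± 5.73 in uninjured cKO, 38.7 ± 21.4 in crush control and 54.9 ± 26.5 in crush cKO samples. Rtp4 stood at 15.2 ± 10.8 CPM in uninjured control, 8.96 ± 1.99 in uninjured cKO, 12.1 ± 5.38 in crush control and 14.1 ± 3.80 in crush cKO samples. Dtx3l, a ubiquitin ligase that pairs with Parp9, stood at 14.8 ± 3.04 CPM in uninjured control, 10.8 ± 1.43 in uninjured cKO, 13.03 ± 2.51 in crush control and 13.9 ± 3.74 in crush cKO samples. Parp9 ranged from 0.867 to 5.16 CPM, Parp14 from 1.20 to 6.47 CPM and Gbp2, a GTPase that attacks membranes around pathogens, from 1.19 to 34.04 CPM. The starts of Parp9 and Dtx3l overlap on opposite strands, and since the library kit does not mark strand, reads there cannot be told apart.

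**Figure D3:**
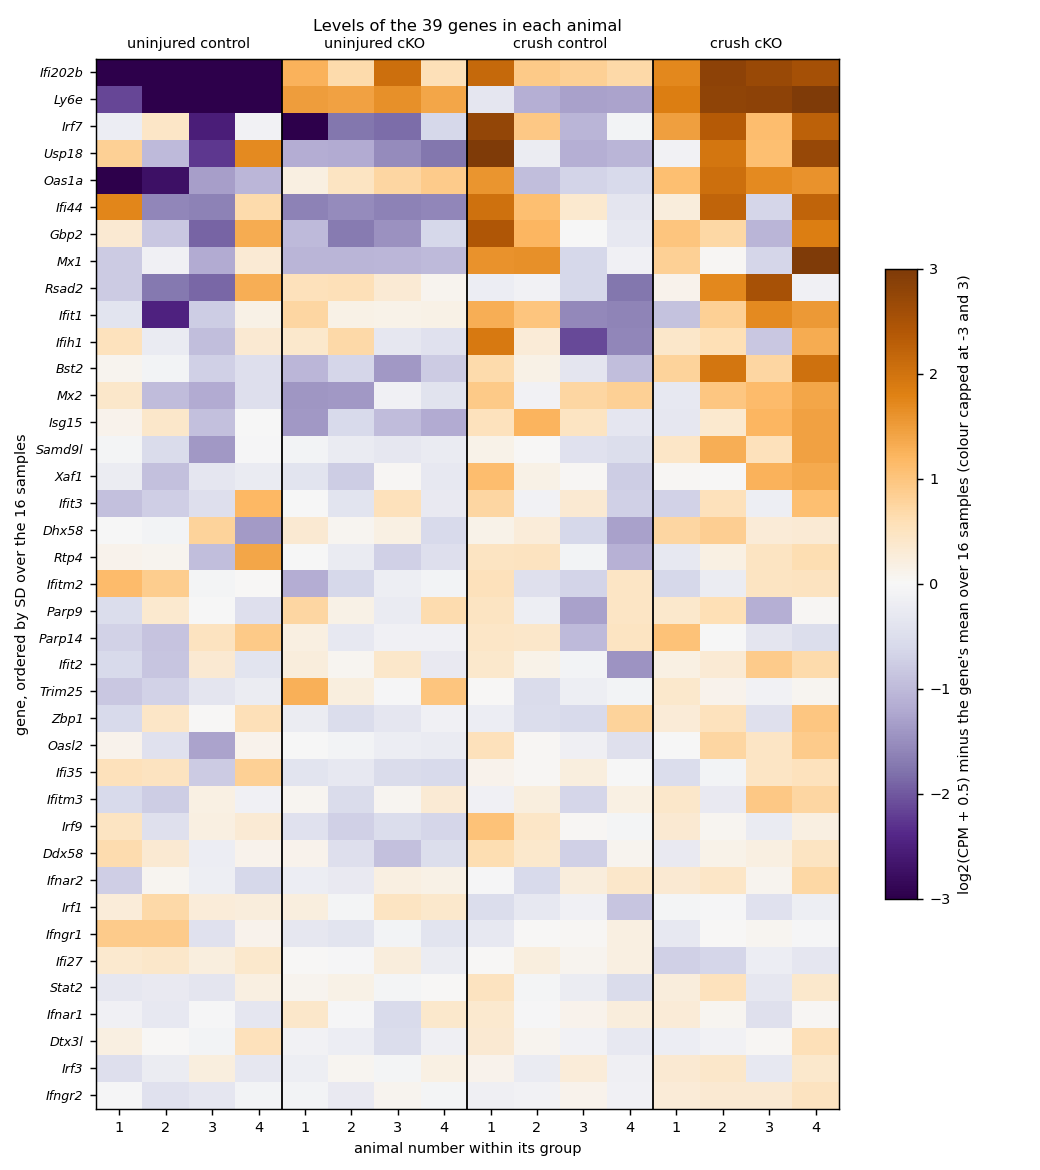
Levels of the 39 genes in rows and the 16 samples, summed per animal and side, in columns, as log2(CPM + 0.5) minus the gene's mean over the 16 samples. Colour is capped at -3 and 3 and genes are ordered by their SD. Animal 1 of crush control and animal 4 of crush cKO are the highest of their groups for 24 and 21 of the 39 genes.

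Animals of a group differed in many of the genes at once. Crush control animal 1 was the highest of its group for 24 of the 39 genes, while an animal of that group was the highest for 22.5 to 27.3% of all genes tested. In crush cKO, animal 4 was the highest for 21 of 39, and in uninjured control, animal 4 was the highest for 16 and animal 3 the lowest for 21. Crush cKO animal 4 also had the lowest summed depth, 36773198 counts, and its aliquot C the lowest of any library, 5159353. In that aliquot 19.37% of counts and summary lines lay outside annotated genes, the highest share of any library. Without this animal, crush in cKO neurons raised 3 of the 39 genes, against 349 of 19764 genes tested. The part of depth in its high values was not tested. The mean log2 CPM over the list was 4.36, 3.75, 3.18 and 3.25 in crush control animals 1 to 4. It was 3.92, 4.37, 3.97 and 4.69 in crush cKO animals. Uninjured control animals stood at 3.19, 2.94, 2.58 and 3.55 and uninjured cKO animals at 3.26, 3.14, 3.23 and 3.29. The uninjured cKO animals thus lay close together, below all crush cKO animals, while the control groups overlapped. The mean over all genes tested lay between 2.12 and 2.39 in the same samples.

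Aliquots of an animal also differed. In crush control animal 1, Ifi44 held 374 counts in 1 aliquot and 0 in the other 2, and Usp18 held 3259, 189 and 1393 counts. In crush cKO animal 4, Usp18 held 1893, 284 and 1 counts and Ifi44 held 13, 237 and 0. Ifi44 was found in 3 of 12 libraries in each uninjured group, in 8 of 12 in crush control and in 10 of 12 in crush cKO. Mx1 was found in 6 and 5 of 12 libraries in uninjured control and cKO, and in 9 and 10 of 12 in crush control and cKO. Oas1a, in contrast, held counts in 36 of 36 libraries of the 3 groups other than uninjured control, where it held them in 9 of 12.

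**Figure D4:**
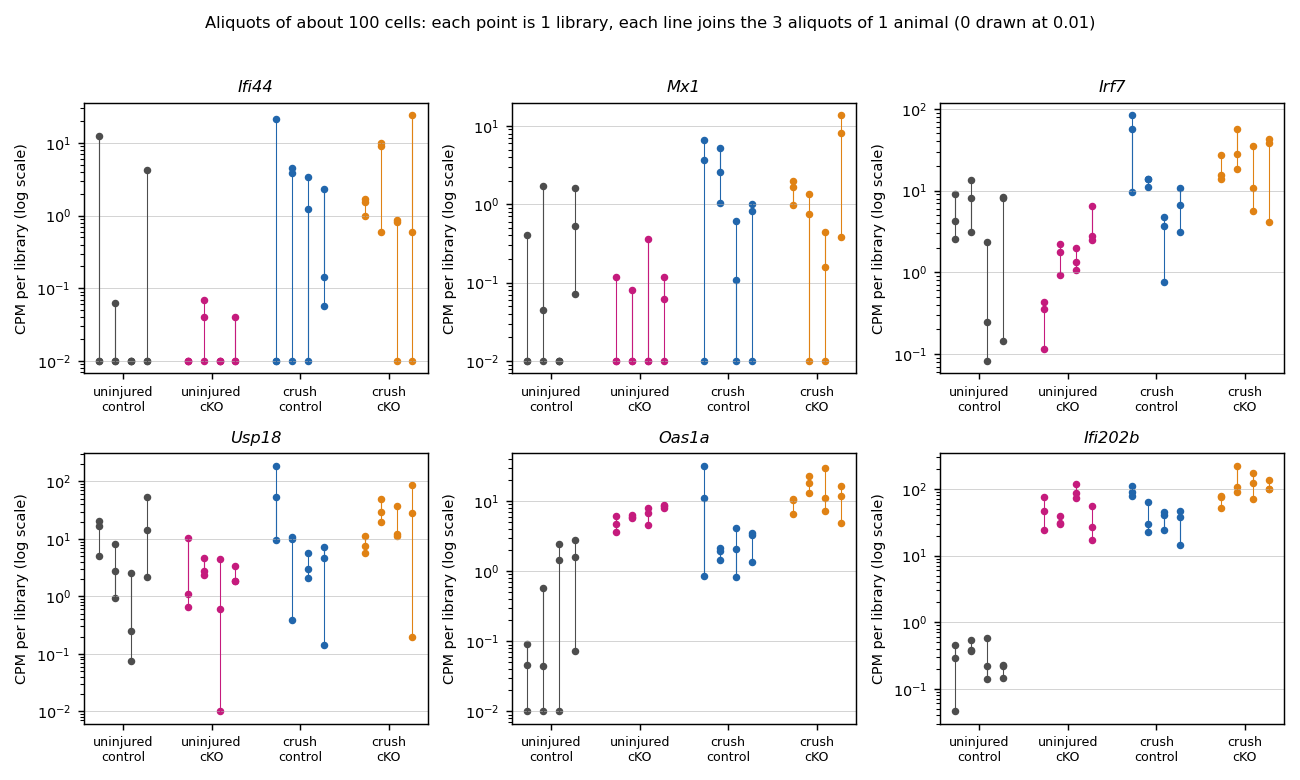
CPM on a log axis in each library for 6 interferon-induced genes; each point is 1 aliquot of about 100 cells, each line joins the 3 aliquots of an animal, and 0 is drawn at 0.01. Ifi44 ranges from 0 to 21.5 CPM between aliquots of crush control animal 1, whereas Ifi202b stays at 0.573 CPM or below in all uninjured control aliquots and at 14.3 or above in all other aliquots.

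Markers of other cell types are given beside these results. The 14 lymphocyte and neutrophil markers, 5 of which passed the filter, summed to 0.579 to 3.79 CPM in uninjured control, 7.65 to 10.7 in uninjured cKO, 10.5 to 31.0 in crush control and 27.8 to 40.2 in crush cKO samples. That is the order of Ifi202b, and crush control animal 1 was again the highest of its group. Outside uninjured control the sum came mainly from Trbc2, S100a8 and Ly6g. In uninjured control samples these reached at most 0.04, 0.341 and 0.103 CPM, while Cd79a reached 2.64 and Camp 1.01, so the sums rest on different genes. Trbc1 and S100a9 were at 0 in all 16 samples, Ngp in 15 and Cd3d in 14, and Cd3e reached at most 0.0402 CPM. The 14 macrophage markers, 10 of which passed, summed to 5.73 to 10.9 CPM in uninjured control, 10.6 to 28.4 in uninjured cKO, 11.7 to 88.4 in crush control and 17.7 to 36.1 in crush cKO samples. The highest, crush control animal 2, was not the animal with the highest interferon-induced genes. Ptprc, carried by all white blood cells, was at 0 in 9 of 16 samples and reached at most 0.622 CPM. The macrophage and microglia receptor gene Cx3cr1 stood at means of 0.0329 CPM in uninjured control, 5.70 in uninjured cKO, 6.94 in crush control and 8.35 in crush cKO samples, low in the same group as Ifi202b. Its log2 changes were 7.64 ± 0.61 for crush in control (edgeR adjusted p = 2.7e-07), 7.35 ± 0.60 for deletion in uninjured neurons (5.22e-07) and -7.09 ± 0.72 for the interaction (2.77e-05). Csf1r, another macrophage receptor gene, rose in the first of these by 2.44 ± 0.75 (0.0312) and in the second by 2.21 ± 0.74 (0.0459). In both contrasts they were the only macrophage markers called of the 10 tested. The median log2 change of the 10 was 1.9 for crush in control and 0.115 for deletion in uninjured neurons. C1qb stood at 1.03 to 3.19 CPM in uninjured control and 0 to 2.03 in uninjured cKO samples. C1qa was at 0 in 11 of 16 samples, and C1qc and Cd163 in 12 each. Lyz2 reached 7.54 CPM in uninjured control and 6.33 in uninjured cKO samples.

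The 9 endothelial markers, 7 of which passed, summed to 18.2 to 34.5 CPM in uninjured control, 21.8 to 34.95 in uninjured cKO, 17.2 to 24.8 in crush control and 22.9 to 59.2 in crush cKO samples. The receptor gene Flt1 stood at means of 0.0339, 8.56, 1.02 and 19.02 CPM in the same order. It rose by 4.86 ± 0.73 for crush in control (edgeR adjusted p = 0.000207), 7.93 ± 0.75 for deletion in uninjured neurons (2.37e-06) and 4.22 ± 0.57 for deletion after crush (0.000364), with an interaction of -3.71 ± 0.89 (0.0451). Other defining endothelial markers were low, with Cldn5 and Emcn at 0 in 10 of 16 samples each and Pecam1 at no more than 1.59 CPM. The 10 fibroblast and pericyte markers summed to 88.1 to 253 CPM in uninjured control, 146.8 to 262.8 in uninjured cKO, 50.3 to 108.6 in crush control and 133.6 to 406.5 in crush cKO samples, so that crush control held the lowest range. Dcn reached 293 CPM and Rgs5 203 in single crush cKO samples, and Vtn was at 0 in 10 of 16 samples. The 11 nociceptor markers summed to 7751 to 10090 CPM in crush control and 5246 to 6963 in crush cKO samples, and to 10880 to 19930 in uninjured control and 6419 to 9533 in uninjured cKO samples. Satellite glia markers, 9 in all, summed to 775 to 1113 CPM in uninjured control and 839.4 to 1051 in uninjured cKO samples. After crush they summed to 732.6 to 1158 CPM in control and 937.7 to 1496 in cKO samples, highest in cKO animal 4. Their median log2 change was 0.571 for crush in cKO neurons, where 1 rose and 1 fell. It was 0.515 for deletion after crush, where 0 were called. The 10 Schwann cell markers summed to 1335 to 1908 CPM over the 16 samples. The part of these cells, and of the makeup of the sorted pools, in the results was not tested.

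Other genes of the pathway were taken from lists beside the 39. Of 77 other interferon-induced genes tested, crush in control neurons raised 7 and lowered 5, and deletion in uninjured neurons raised 10 and lowered 5. Crush in cKO neurons raised 2 and deletion after crush raised 3. Beside the 11.0% and 8.68% of all genes that rose and fell after crush in control and the 11.7% and 9.02% with deletion in uninjured neurons, and the 2.57% and 3.38% that rose in the last 2 contrasts, these shares were close to those of all genes. After crush in cKO neurons, the 2 of 77 that rose stand beside 9 of the 39 genes described above, and the difference between the lists was not tested. In control neurons the surface proteins Ly6c1 and Ly6a and the Ifi202b relative Ifi211 rose after crush, with log2 changes of 7.52 ± 0.82, 5.72 ± 0.99 and 6.24 ± 1.04, and Irf2 fell by 0.84 ± 0.15. With deletion in uninjured neurons Slfn5, a member of the Schlafen family, stood at a mean of 0.0143 CPM in control and 10.1 in cKO samples. That is 3 against 2284 counts, a ratio of 729 with an exact 95% counting interval of 249 to 3540, too narrow as stated for Ifi44. Ly6c1, Ifi211 and Ifi203 rose there too, by 6.98 ± 0.81, 5.65 ± 1.02 and 4.71 ± 1.03. Ifi211 held 2 counts in all uninjured control samples, so its ratios of 109 after crush and 63.2 with deletion have exact counting intervals of 29.8 to 905 and 17.1 to 527. In cKO neurons the immunoproteasome subunit Psmb8 rose after crush by 1.58 ± 0.34 (edgeR adjusted p = 0.0119) and the GTPase Igtp by 1.02 ± 0.25 (0.0228). Deletion after crush raised Slfn5 by 5.10 ± 0.76 (0.00085), Irf2bpl by 0.67 ± 0.18 (0.0313) and Irf8, which held 1 count in crush control and 53 in crush cKO samples, a ratio of 58.0 with a counting interval of 9.96 to 2330. Ly6c1 was the gene of this list that the interaction called, at -5.67 ± 0.97 (0.00475).

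Of the 14 genes that carry the signal at the receptor, crush in control neurons raised 6 and lowered 2, against 11.0% and 8.68% of all genes tested. The former included the kinase Jak2, at 1.57 ± 0.25 (edgeR adjusted p = 0.000418), the phosphatase Ptpn1, at 1.89 ± 0.34 (0.000948), Stat3, at 0.57 ± 0.10 (0.000827), and the receptor chain Il10rb, at 0.70 ± 0.17 (0.00818). Jak2 and Stat3 also serve other cytokine receptors. With deletion in uninjured neurons 2 rose and 1 fell, against 11.7% and 9.02% of all genes, Stat3 by 0.60 ± 0.10 (0.000519), the feedback inhibitor Socs1 by 2.93 ± 0.81 (0.0169) and Pias1 by -0.54 ± 0.14 (0.0105). Of 18 sensing genes tested upstream of interferon, 1 rose and 2 fell after crush in control and again with deletion in uninjured neurons, where 11.0% and 11.7% of all genes rose and 8.68% and 9.02% fell. After crush in cKO neurons 1 rose, against 2.57%, and with deletion after crush 1 rose and 1 fell, against 3.38% and 3.21%. Tmem173, which encodes the DNA response protein STING, rose after crush in control, by 1.09 ± 0.36 (edgeR adjusted p = 0.0436), and in cKO neurons, by 1.30 ± 0.36 (0.0494). The kinase Tbk1 fell by 0.34 ± 0.10 (0.0329) after crush in controls, and with deletion by 0.47 ± 0.10 (0.00455) in uninjured and 0.46 ± 0.10 (0.0147) in crushed neurons. Unc93b1, which ferries Toll-like receptors, fell by 2.07 ± 0.63 (0.0302) after crush in controls and rose by 2.90 ± 0.65 (0.013) with deletion after crush. With deletion in uninjured neurons the adaptor Ticam1 rose by 1.07 ± 0.34 (0.0333) and Rnaseh2a fell by 0.41 ± 0.13 (0.0303).

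Ly6e, Ifi202b and Oas1a each lie in a cluster of related genes. Genes within 500 kb, a window of 500000 bases chosen after the changes were seen, are therefore given. Ly6e lies on chromosome 15 at 74955051 to 74959905 (plus strand), and of 13 other protein-coding genes tested around it crush in control neurons raised 7, and deletion in uninjured neurons raised 6 and lowered 1, against 11.0% and 11.7% of all genes that rose and 9.02% that fell with deletion. Gml, a relative, changed by 7.09 and 6.29 on the log2 scale, and Ly6g by 7.82 and 4.01. Slurp1 held 0 counts in uninjured control samples and was at least 53.4-fold higher in crush control and 71.1-fold higher in uninjured cKO samples, against a floor of 3 counts over the group. Slurp2, next to it, fell by 3.32 with deletion. Lynx1, an abundant gene of the same family, stood at means of 161.6 CPM in uninjured and 210.4 in crush control samples and 164.2 in uninjured and 264.7 in crush cKO samples, and did not pass in either of these contrasts. Ly6g, in the neutrophil list above, is thus a neighbour of Ly6e. Ifi202b lies on chromosome 1 at 173962568 to 173982744 (minus strand), and of 7 other genes 3 rose in each of the same contrasts, Ifi204, Ifi211 and Ifi203. Of 19 genes around Oas1a, on chromosome 5 at 120896256 to 120907521 (minus strand), 1 rose and 1 fell after crush in controls, and 2 rose and 1 fell with deletion, shares close to or below those of all genes. Copies within these clusters are alike in sequence and reads aligned to several places were not counted, so their levels are uncertain. The mice were of mixed C57BL/6 and AJ background, the labels do not say which strain's copy of a cluster an animal carried, and its part in the differences of Ifi202b, Ly6e and their neighbours was not tested.

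**Figure D5:**
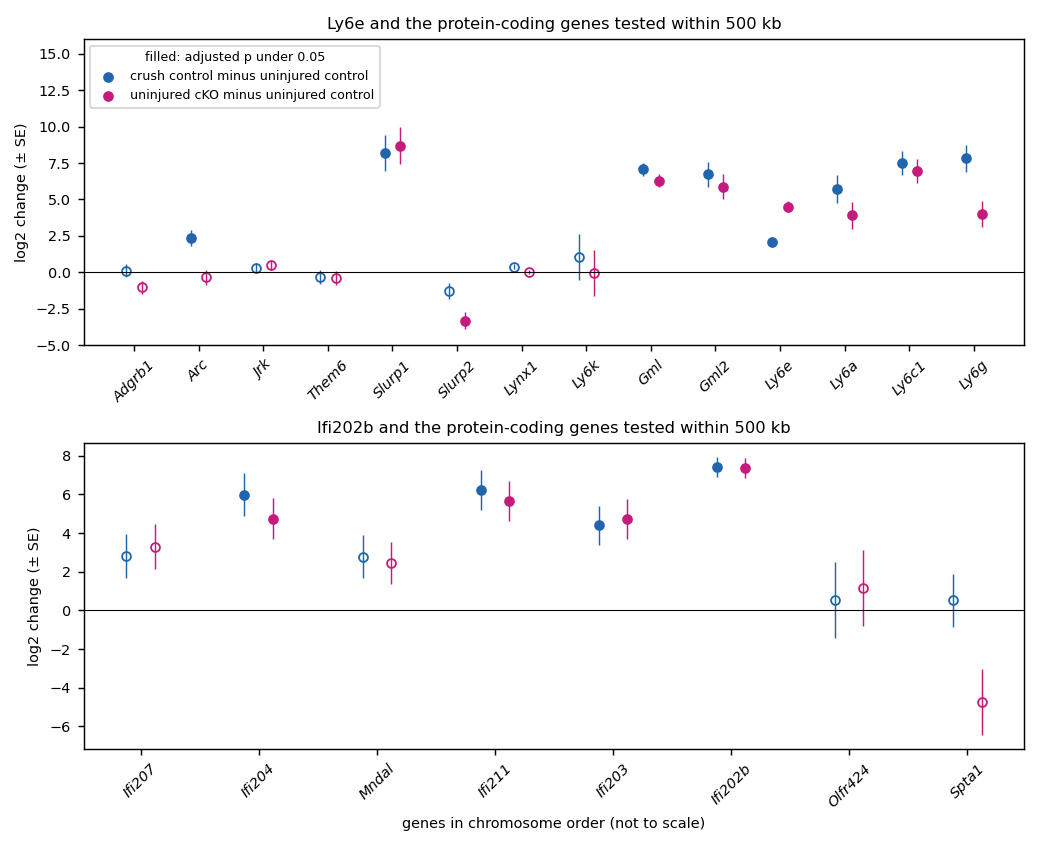
Log2 change ± SE of Ly6e (top) and Ifi202b (bottom) and of the protein-coding genes tested within 500 kb, in chromosome order and not to scale, for crush control minus uninjured control and uninjured cKO minus uninjured control; filled points have an edgeR adjusted p under 0.05. Both contrasts use the same uninjured control samples, and in both the changes of Gml, Ly6c1, Ifi211 and Ifi202b exceed 5 on the log2 scale.

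The authors' deposited table of fold changes lists 28 of the 39 genes. In the authors' deposited table, 17 of them had an adjusted p under 0.05 and a positive log2 change in the column for crush cKO samples, 6 in that for crush control and 4 in that for uninjured cKO samples, and 2, 3 and 11 a negative change. Its reference group is not stated in the sources at hand. The values of the authors' deposited table lay close to edgeR changes against uninjured control samples, with a median absolute difference of 0.0594 and a largest of 0.557 on the log2 scale. For Isg15 the authors' deposited table gives log2 changes of -1.31 in uninjured cKO and 0.92 in crush cKO samples, and for Bst2 -0.71 and 1.63.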

How the data were processed

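Per the labels' protocols, ganglia were dissociated, sorted for the reporter and amplified with a SMARTer Ultra Low RNA kit (13 cycles for cDNA), which names no molecular identifiers, so counts include amplification copies. The files the authors deposited hold unnormalized whole-number counts, 1 per Ensembl gene and library. The submitters' processing notes name FastQC, STAR, HTSeq and DESeq2 and the build mm10, without versions. The summary lines that HTSeq adds were left out of library sizes, and reads aligned to several places, 37.5 to 46.1% of a library's counts and summary lines, were not counted by the authors. A further deposited table holds the authors' log2 fold changes and p-values and is used only where it is named. Symbols and coordinates came from GENCODE M21 on the same assembly, and 47224 of 47643 identifiers matched.

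Aliquots, which the labels call technical replicates, were summed per animal and side. Sums were fitted with edgeR 4.0.16 (R 4.3.3), scaled by TMM and filtered by filterByExpr, which kept 19048 genes, all 39 genes of the list among them, with 1 mean per group and a two-sided quasi-likelihood test, whose p-values were adjusted by Benjamini-Hochberg over all genes tested and a threshold of 0.05. The SE is the log2 change divided by the square root of F. CPM values use TMM-scaled library sizes. Nothing in the labels says that samples with the same number in different groups come from the same animal, so samples were not paired. Alternatives were another scaling (RLE), other filters on low counts, a threshold of 0.01, sex as a term, the replicate number as a block, limma-voom (limma 3.58.1), the 48 libraries with the animal and side as a random effect, DESeq2 1.42.0 and leaving out each sample. The scripts were tested on simulated data. Every gene called in a contrast is described with its value in each sample, uncalled genes with a mean of at least 10 CPM by group means and the rest by ranges, and up to 4 called genes per contrast of each further list with the smallest p are named. The 39 genes, the further lists and the tests were chosen with earlier results of these data known. No p-value was computed for a list.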

Additional observations from a re-analysis of the deposited data

Results flagged for a closer look

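Of 124 groups of 4 animals examined over the 31 genes with printed values, 10 held an animal whose gap to the nearest of the others exceeded Dixon's limit as a share of the group's range. For independent, normally distributed values chance alone sets apart about 1 group in 20. That rate need not hold here, since CPM was not put on a log scale and the genes of an animal moved together. In crush control, animal 1 stood apart for Ly6e at 62.5 CPM against 31.6 to 35.5 in the other animals, for Ifi202b at 92.3 against 33.1 to 39.4, for Oas1a at 13.2 against 1.87 to 2.51 and for Usp18 at 75.2 against 3.62 to 7.23. In uninjured control, animal 4 stood apart for Ifit3 at 30.2 CPM against 6.57 to 9.13, for Stat2 at 74.3 against 49.7 to 53.6 and for Rsad2 at 18.5 against 1.57 to 3.96, and animal 2 for Irf1 at 24.5 against 18.0 to 18.2. Animal 1 of uninjured cKO stood apart for Ifit1 at 106.4 CPM against 70.5 to 71.5, and animal 4 of crush cKO for Mx1 at 10.2 against 0.222 to 1.52.

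By the interaction test in edgeR, the effect of crush differed between genotypes for Ifi202b, by a log2 difference of -6.15, and for Bst2, by 2.30 (cKO minus control).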

How the results depend on the processing

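Of the 30 calls of single genes in the 5 contrasts, 9 held under every alternative and 13 in all 16 fits without 1 sample; 0 changes reversed, and 19 pairs of a gene and a contrast passed only under an alternative. At a threshold of 0.01 the number of the 39 genes called was 1 for crush in cKO, 3 for deletion in uninjured neurons, 2 for deletion after crush and 1 for the interaction. For the interaction limma-voom called 0 of 39 and the 48 libraries with a random effect called 1, while DESeq2 called 3. Leaving out 1 sample gave 2 to 14 calls for crush in cKO and 3 to 5 for crush in control neurons, 5 to 11 for deletion in uninjured neurons, 2 to 6 for deletion after crush and 1 to 4 for the interaction.

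Samples that share a number deviated together only weakly, with correlations of 0.041 to 0.109 between the sides of control and 0.063 to 0.152 between the sides of cKO samples, although every sample correlated best with its own number (8 of 8 in each genotype). With the replicate number as a block, crush moved 4 genes in control and 11 in cKO neurons, deletion moved 6 in uninjured neurons and 5 after crush, and the interaction called 2. Oas1a lost its call for crush in control neurons, and Ifi35, Ifitm2 and Ifngr1 lost theirs for deletion in uninjured neurons; the cause was not tested.

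Counts over 4 animals limit what small changes can be called, and levels below about 1 CPM rest on few counts in few aliquots.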

Other observations

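Males and females of a group differed in many of these genes after crush, a pattern seen in the data first and given as values. In crush control, both males stood above both females for 22 of the 39 genes and both females above both males for 2, while 14.6% and 14.9% of all genes tested did so. The 22 included the effectors Isg15, Bst2, Ifit1, Ifit2, Mx1, Rsad2 and Usp18, the sensors Ddx58, Ifih1 and Dhx58 and the factors Irf7, Irf9 and Stat2. In crush cKO the males were above for 6 genes and the females for 14, against 23.2% and 17.1% of all genes tested. The 14 included Isg15, Ifit1, Ifit2, Ddx58 and Xaf1, for which both males were above in crush control. In uninjured control the numbers were 8 and 6, and in uninjured cKO 10 and 9, against 18.2 to 19.3% of all genes tested in either direction. With 2 animals of each sex in a group, the smallest p an exact test of sex within a group could give is above any usual threshold, and no test was made.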
